A study of Mus musculus with 4 samples.

Results

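The 33 genes described here encode enzymes, regulators and a lipid carrier of cholesterol and fatty acid synthesis. They were chosen by name from the 24157 gene symbols of the deposited table, with the entry of the highest mean kept where a symbol had several, and fall into a sterol arm of 20 genes and a fatty acid arm of 13 genes. All 33 symbols were found. Their RNA was measured by RNA-seq of total RNA from whole isolated mouse islets that had been kept at 2.8 mM (LoGlu) or 16.8 mM (HiGlu) glucose, with 2 libraries per group. The islets came from 1 pool of wild type C57bl6 males, 3 months old, and held all islet cell types together. Before the treatment the islets spent a night at 11 mM glucose and 2 h of starvation at 2.8 mM. The treatment itself lasted 12 h in both groups by the series design, but only 2 h in LoGlu by the sample labels, which keep 12 h for HiGlu. If the labels hold, glucose and time cannot be told apart. Because both libraries of a group came from the same pool, the p-values measure only the spread between these libraries, which may be technical.

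Both arms start from cytosolic acetyl-CoA. In the sterol arm, acetyl-CoA is built into mevalonate, isoprenoid diphosphates, squalene and finally cholesterol. In the fatty acid arm, acetyl-CoA is carboxylated and assembled into palmitate, which is then elongated and desaturated. Sterol regulatory element binding proteins (SREBPs) activate both arms. The product of *Srebf2* favours sterol genes and a product of *Srebf1* favours fatty acid genes, and both are held in the endoplasmic reticulum by INSIG proteins when sterols are plentiful. In beta cells, glucose carbon leaves the mitochondria as citrate and supplies acetyl-CoA in the cytosol.

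The libraries held between 50830000 and 60720000 reads, a depth recovered from the steps of the RPKM values. Over the transcripts tested, log2 values correlated at 0.98 within each group and at 0.927 to 0.939 between groups. Of the 7867 transcripts whose mean reached 1 RPKM (reads scaled to feature length and library depth), 33.4% passed an adjusted p of 0.05 in limma on log2(RPKM + 0.5), 10.7% being higher and 22.8% lower at 16.8 mM. Thus 31.9% of all calls were higher, a share that became 41.9% after quantile normalization and 44.1% after centring every library on its median. Beta cell markers marked the tissue as labelled, their summed level being 20600 to 22900 RPKM in the LoGlu libraries and 41000 to 43700 RPKM in the HiGlu libraries, and 6 of 8 tested were higher. In such bulk samples, fewer cells of a type and less RNA per cell cannot be told apart. Of 10 acinar and duct markers tested, limma called 0 (5 were higher at an unadjusted p under 0.05). Voom, run on reads reconstructed from the RPKM values, called 10 of 12 higher (against 13.7% of all transcripts). Their sum was 105 to 300 RPKM in LoGlu and 256 to 526 RPKM in HiGlu, the replicate 2 library being the higher in each group. The part of exocrine RNA and of beta cell RNA in the differences below was not tested.

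The promoters of the members were read first, because SREBPs act together with factors that bind CCAAT and GC boxes near the start of a gene. RefSeq gave a promoter on GRCm38.p6 for 26 of the 33 genes, and the 250 bases before each start were searched on both strands. None was given for *Sqle*, *Fdps*, *Fdft1*, *Stard4*, *Scd1*, *Scd2* and *Fads1*. CCAAT was present before 15 of 16 sterol genes (93.8%) and before 6 of 10 fatty acid genes, against 37.5% of 27025 genes in the same reference. The GC box GGGCGG was likewise present before 15 of 16 sterol genes and 5 of 10 fatty acid genes, against 35.4% of all genes. The E-box CACGTG stood before 4 sterol genes and 1 fatty acid gene, compared with 6.86% of all genes. The sterol regulatory element TCACNCCAC was found before *Hmgcs1* alone, as TCACCCCAC at 137 bases before the start, and before 1.22% of all genes. These are matches of letters in a short window, a gene with several starts has several windows, and base composition was not matched. Shown here are 3 sterol promoters and 2 fatty acid promoters, in which capitals mark CCAAT on either strand. The sterol genes were lower at 16.8 mM, *Acly* was higher and *Fasn* passed no test. The windows lie on the plus strand at chr13:8885356-8885605 for *Idi1*, chr5:28071162-28071411 for *Insig1* and chr10:76531355-76531604 for *Lss*, and on the minus strand at chr11:100528001-100528250 for *Acly* and chr11:120824548-120824797 for *Fasn*.
Idi1: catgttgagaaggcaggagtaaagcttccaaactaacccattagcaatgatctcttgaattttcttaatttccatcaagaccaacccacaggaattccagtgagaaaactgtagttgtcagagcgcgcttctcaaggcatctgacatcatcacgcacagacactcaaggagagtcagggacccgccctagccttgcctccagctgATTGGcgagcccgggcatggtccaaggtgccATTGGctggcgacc
Insig1: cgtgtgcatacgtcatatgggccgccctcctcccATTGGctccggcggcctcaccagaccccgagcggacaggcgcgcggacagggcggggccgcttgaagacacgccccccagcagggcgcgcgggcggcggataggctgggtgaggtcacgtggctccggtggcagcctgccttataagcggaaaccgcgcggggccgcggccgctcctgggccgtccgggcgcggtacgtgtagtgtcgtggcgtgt
Lss: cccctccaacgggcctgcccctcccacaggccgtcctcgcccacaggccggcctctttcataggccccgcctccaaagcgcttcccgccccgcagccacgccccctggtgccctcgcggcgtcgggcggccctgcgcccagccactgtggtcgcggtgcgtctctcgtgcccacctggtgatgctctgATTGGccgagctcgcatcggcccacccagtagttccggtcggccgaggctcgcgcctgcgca
Acly: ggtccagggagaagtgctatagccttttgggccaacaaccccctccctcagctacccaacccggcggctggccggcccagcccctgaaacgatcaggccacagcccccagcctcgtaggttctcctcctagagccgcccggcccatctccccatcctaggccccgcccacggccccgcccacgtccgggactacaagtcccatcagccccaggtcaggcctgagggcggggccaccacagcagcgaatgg
Fasn: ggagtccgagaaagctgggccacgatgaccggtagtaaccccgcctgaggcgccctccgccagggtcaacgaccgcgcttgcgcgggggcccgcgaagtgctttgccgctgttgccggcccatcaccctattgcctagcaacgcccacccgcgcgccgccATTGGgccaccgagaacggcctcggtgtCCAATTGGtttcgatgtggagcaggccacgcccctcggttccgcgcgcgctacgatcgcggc
Both CCAAT matches of *Idi1* lay within 45 bases of the start, that of *Lss* at 62 bases and that of *Insig1* further out, at 216 bases. *Fasn* held 3 overlapping or nearby matches at 59 to 90 bases, whereas the *Acly* window held none but had 4 GC boxes. *Pmvk* and *Tm7sf2*, the 2 sterol genes that were higher at 16.8 mM, each had a CCAAT in a window as well. For *Pmvk* it lay in the window at chr3:89454291-89454540, and the window at chr3:89459321-89459570 held none.

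Sterol genes were called in both directions at 16.8 mM glucose. Of the 20 genes of the sterol arm, 12 reached the minimum for testing, of which 4 were lower (33.3%, against 22.8% of all transcripts tested) and 2 were higher (16.7%, against 10.7%). After quantile normalization or median centring the split was 3 lower and 3 higher, *Idi1* losing its call and *Ebp* gaining one, while the higher share of all calls went from 31.9% to 41.9% and 44.1%. *Fdps*, *Idi1*, *Insig1* and *Lss* fell, and *Pmvk* and *Tm7sf2* rose. Of the 12 genes, 10 reached the minimum in both groups. *Tm7sf2*, 1 of the 2 higher calls, reached it only through HiGlu, the group where it was higher, so the higher share rests in part on the filter. The median log2 difference of the 19 genes above 0 was -0.14, against -0.11 over all transcripts tested, but the 7 genes under the minimum are shrunk by the added 0.5 RPKM, and by voom the medians were -0.28 and -0.12. RPKM in this table fitted reads over the genomic span, introns included, which lowers the values of genes with long introns, and 7 of the remaining genes lay above 0 but under the minimum. The test was therefore repeated with voom on the reconstructed reads, in which 7 of 19 sterol genes were lower (36.8%, against 29.1% of 17424 transcripts) and 2 were higher (10.5%, against 13.7%). Without LoGlu replicate 1, limma called 1 sterol gene lower (*Fdps*) in place of 4.

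**Figure D1:**
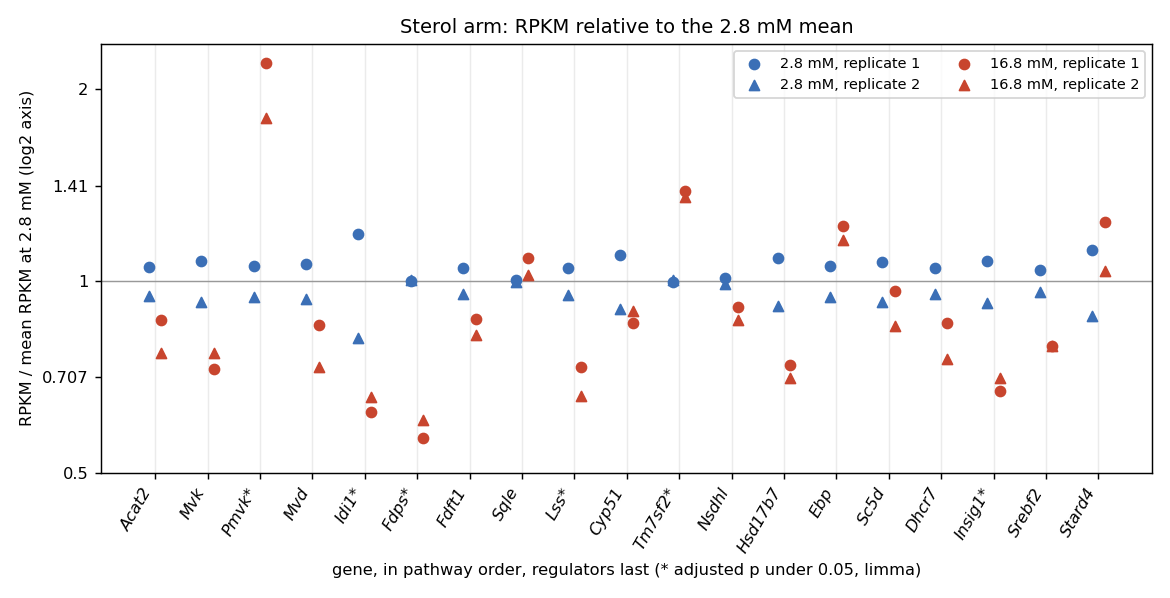
RPKM of 19 sterol genes in each of the 4 libraries, divided by the mean of the 2 LoGlu libraries (log2 axis). Circles and triangles are replicates 1 and 2, and asterisks mark limma calls. *Pmvk* stands alone at 1.81 to 2.20 times the LoGlu mean, while *Fdps* lies lowest at 0.566 and 0.604.

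Among the enzymes that make mevalonate and isoprenoids, *Fdps* showed the largest fall. It encodes farnesyl diphosphate synthase, whose product feeds squalene, protein prenylation and other branches, and lies at chr3:88897514-88905881 on the minus strand (NCBIM37, 10 exons). All gene positions from here on are on NCBIM37 and cannot be set against the promoter windows above, which are on GRCm38.p6. Its RPKM was 4.88 and 4.90 in the LoGlu libraries and 2.77 and 2.96 in the HiGlu libraries. The groups did not overlap and the mean fell by 41.5% at 16.8 mM, a log2 difference of -0.68 ± 0.09 (SE, n = 2 per group) at an adjusted p of 0.0026. The call held in all 16 alternative settings. Among these, the choice of entry changes nothing for *Fdps* or any other member with 1 entry.

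*Idi1*, which interconverts the isopentenyl and dimethylallyl diphosphates that FDPS joins, was measured at 2.72 and 1.87 RPKM in LoGlu and at 1.43 and 1.51 RPKM in HiGlu. LoGlu replicate 1 stood above the other libraries, and the log2 difference of -0.49 ± 0.14 (adjusted p = 0.037) shrank to -0.27 (adjusted p = 0.17) without it. The gene (chr13:8884852-8891641 on NCBIM37, plus strand) lost its call in 6 of 16 alternatives.

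*Pmvk* moved the other way. Phosphomevalonate kinase catalyses the second phosphorylation of mevalonate, between MVK and MVD. Its level was 1.78 and 1.59 RPKM in LoGlu and 3.71 and 3.03 RPKM in HiGlu, a ratio of means of 2.00. The log2 difference was 0.82 ± 0.11 (adjusted p = 0.0026), and the gene lies at chr3:89263040-89272935 on the plus strand. Its neighbours in the pathway lay under the minimum for limma and had both HiGlu values below both LoGlu values. *Mvk*, with 0.410 and 0.353 RPKM in LoGlu and 0.277 and 0.294 RPKM in HiGlu, was lower by voom (log2 difference -0.42 ± 0.16, adjusted p = 0.044). *Mvd* gave 0.439 and 0.386 RPKM against 0.352 and 0.303 RPKM and was not called (voom, -0.33 ± 0.19, adjusted p = 0.17).

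*Acat2*, a thiolase that makes acetoacetyl-CoA, had 0.754 and 0.677 RPKM in LoGlu and 0.622 and 0.552 RPKM in HiGlu, which did not overlap but gave an adjusted p of 0.087 by voom. *Hmgcs1*, the synthase of 3-hydroxy-3-methylglutaryl-CoA, was listed at 0 in all 4 libraries and gave no result.

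Of the 10 enzymes between farnesyl diphosphate and cholesterol, 7 were tested. Of these, 1 was lower (14.3%, against 22.8% of all transcripts tested) and 1 was higher (14.3%, against 10.7%). The higher one, *Tm7sf2*, was tested only through its HiGlu values. *Lss* encodes lanosterol synthase, which closes the sterol rings (chr10:75994352-76018224, plus strand, 22 exons). It gave 1.68 and 1.52 RPKM in LoGlu and 1.18 and 1.06 RPKM in HiGlu, with no overlap and a log2 difference of -0.38 ± 0.09 (adjusted p = 0.016). *4930483K19Rik* lies on the opposite strand over 9609 bases of the gene and was lower too (-0.34, adjusted p = 0.029), and reads of the pair cannot be told apart without strand.

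*Tm7sf2*, a sterol reductase that acts soon after lanosterol, was higher, at 0.895 and 0.899 RPKM in LoGlu against 1.24 and 1.22 RPKM in HiGlu. The replicates of each group lay close together (0.897 ± 0.00339 and 1.23 ± 0.0170, SD) and the log2 difference was 0.31 ± 0.07 (adjusted p = 0.019). It reached the minimum of 1 RPKM through the HiGlu libraries, and missed the threshold without either LoGlu library (adjusted p = 0.061 and 0.052).

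*Sqle*, squalene epoxidase, a rate-limiting step of the late pathway, was close to level at 6.88 and 6.85 RPKM in LoGlu and 7.46 and 7.004 RPKM in HiGlu. Its log2 difference of 0.07 ± 0.10 (adjusted p = 0.63) contrasts in size with that of *Fdps*, although the difference between the genes was not tested. *Fdft1*, squalene synthase, which uses the product of FDPS, lay between them at 1.34 and 1.22 RPKM against 1.11 and 1.05 RPKM (-0.17 ± 0.08, adjusted p = 0.14). It shares 769 bases with *Ctsb* on the opposite strand, which gave 17.4 to 19.9 RPKM in LoGlu and 21.9 to 24.3 RPKM in HiGlu (0.30, adjusted p = 0.12).

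*Cyp51*, *Ebp* and *Sc5d* were tested by limma and not called in the main setting. *Cyp51*, the lanosterol demethylase, gave 1.35 and 1.11 RPKM in LoGlu and 1.05 and 1.10 RPKM in HiGlu (-0.13 ± 0.09, adjusted p = 0.32). *Ebp*, a sterol isomerase, gave 1.57 and 1.40 RPKM against 1.81 and 1.72 RPKM (0.19 ± 0.09, adjusted p = 0.12) and was called higher after quantile normalization (0.27, adjusted p = 0.012) and median centring (0.28, adjusted p = 0.011). *Sc5d*, a sterol desaturase, overlapped between groups, with 2.03 and 1.76 RPKM against 1.83 and 1.61 RPKM (-0.11 ± 0.10, adjusted p = 0.42).

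The 3 members of this group under the minimum were *Nsdhl*, *Hsd17b7* and *Dhcr7*, which act in the removal of methyl groups and in the last reduction to cholesterol. *Hsd17b7*, at 0.430 and 0.361 RPKM in LoGlu and 0.291 and 0.278 RPKM in HiGlu, was lower by voom (-0.47 ± 0.15, adjusted p = 0.019). *Nsdhl* (0.186 and 0.182 RPKM against 0.168 and 0.160 RPKM) and *Dhcr7* (0.438 and 0.399 RPKM against 0.360 and 0.316 RPKM) were not called, with adjusted p of 0.38 and 0.078.

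Among the regulators of the arm, limma called *Insig1* and voom called *Insig1* and *Srebf2*. INSIG1 retains the SREBPs and their escort SCAP in the endoplasmic reticulum, and its gene is itself a target of SREBPs. It was measured at 6.05 and 5.18 RPKM in LoGlu and at 3.76 and 3.96 RPKM in HiGlu. All LoGlu values lay above all HiGlu values, the mean fell by 31.2%, with a log2 difference of -0.48 ± 0.11 (adjusted p = 0.017, chr5:28397952-28405201, plus strand). Without LoGlu replicate 1 the difference was -0.38 (adjusted p = 0.069).

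*Srebf2*, the sterol-directed SREBP, gave 1.26 and 1.17 RPKM in LoGlu and 0.962 in both HiGlu libraries. The groups were apart, but the log2 difference of -0.23 ± 0.08 missed the threshold in limma (adjusted p = 0.056) and passed it by voom (-0.34 ± 0.09, adjusted p = 0.0066). The gene was tested through its LoGlu values, and *Mir33* lies inside it. *Stard4*, which carries cholesterol between membranes, overlapped between groups at 0.698 and 0.550 RPKM against 0.773 and 0.648 RPKM and was not called by voom (0.19 ± 0.15, adjusted p = 0.31).

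Counted without a test, 13 of 19 sterol genes (68.4%) had both HiGlu values below both LoGlu values, against 38.2% of the 26272 transcripts above 0. Both were above in 4 of 19 (21.1%), against 22.0%. The 26272 transcripts include those under the voom minimum of 20 reads, which all 19 sterol genes passed, so the sets are unlike. The genes of the arm that overlapped were *Sc5d* and *Stard4*.

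The fatty acid arm differed in direction from gene to gene. Of its 13 genes 6 were tested, of which 3 were higher (against 10.7% of all transcripts tested) and 1 was lower (16.7%, against 22.8%). *Acly*, *Scd2* and *Srebf1* rose, *Fads1* fell, and *Fasn* and *Elovl5* gave no call. The median log2 difference was 0.00. By voom 4 of 13 were higher (30.8%, against 13.7%) and 3 were lower (23.1%, against 29.1%). Counted by range alone, 4 of 13 had all HiGlu values higher (30.8%) and 5 all lower (38.5%), against 22.0% and 38.2% of all transcripts above 0. That set again includes transcripts with few reads.

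**Figure D2:**
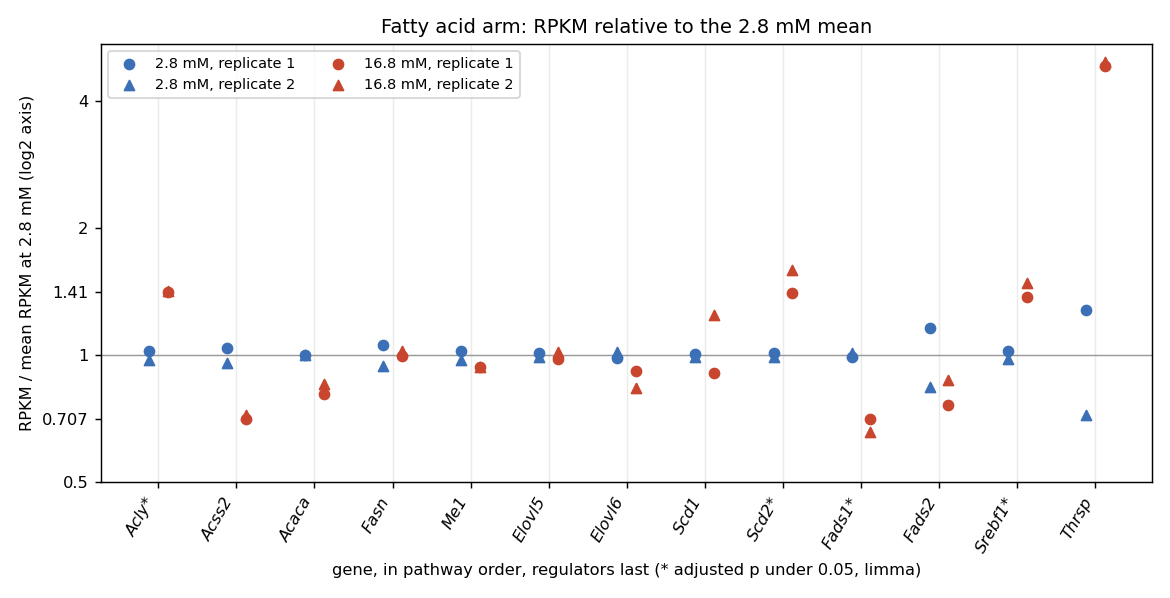
RPKM of the 13 fatty acid genes in each library, divided by the mean of the 2 LoGlu libraries (log2 axis), with circles and triangles for replicates 1 and 2. *Acly*, *Scd2* and *Srebf1* lie at 1.38 to 1.59 times the LoGlu mean, *Acss2* and *Fads1* at 0.658 to 0.720, and *Thrsp*, with few reads, at 4.84 and 4.94.

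*Acly* was the most abundant member by far. ATP citrate lyase splits cytosolic citrate into acetyl-CoA and oxaloacetate and so supplies both arms. The gene (chr11:100337667-100389314, minus strand, 29 exons) gave 20.9 and 19.9 RPKM in LoGlu and 28.8 and 29.0 RPKM in HiGlu. The HiGlu mean was 41.8% higher, with a log2 difference of 0.49 ± 0.12 (adjusted p = 0.020). The size changed little when a HiGlu library was left out (0.50 and 0.49), but the call was lost (adjusted p = 0.093 and 0.12). Scaled to exon length, its mean level was 287, against 41.2 for *Sqle*, 26.3 for *Fdps* and 26.2 for *Elovl5*, the next in order. This scale multiplies RPKM by span over exon length and assumes that all reads fall in exons, and *Fdps* and *Elovl5* did not differ beyond their spread over libraries, 18.8 to 33.2 and 25.7 to 26.7.

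*Acss2*, the enzyme that makes acetyl-CoA from acetate, went the other way. It gave 0.406 and 0.375 RPKM in LoGlu and 0.276 and 0.281 RPKM in HiGlu, under the minimum for limma, and was lower by voom (-0.49 ± 0.12, adjusted p = 0.0027). *Ggt7* on the opposite strand shares 163 bases with it and *4930471I20Rik* has 629 exonic bases inside it.

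Of *Acaca*, *Fasn* and *Me1*, limma tested *Fasn* alone, since the others lay under its minimum. None of them was called higher by limma or by voom. *Acaca*, acetyl-CoA carboxylase, which makes malonyl-CoA and spans 229 kb, gave 0.133 RPKM in both LoGlu libraries and 0.107 and 0.113 RPKM in HiGlu. It was lower by voom (-0.27 ± 0.10, adjusted p = 0.041). *Fasn*, fatty acid synthase, gave 3.04 and 2.72 RPKM against 2.86 and 2.94 RPKM, the groups overlapping fully (0.01 ± 0.09, adjusted p = 0.94). *Me1*, malic enzyme, a source of NADPH, had 0.278 and 0.265 RPKM against 0.254 and 0.255 RPKM and was not called (voom, -0.09 ± 0.10, adjusted p = 0.48).

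Of the desaturases, *Scd2* rose. It encodes a stearoyl-CoA desaturase, which introduces the first double bond into saturated acyl chains. Levels were 4.64 and 4.55 RPKM in LoGlu and 6.43 and 7.30 RPKM in HiGlu (chr19:44368166-44381354, plus strand), a log2 difference of 0.53 ± 0.11 (adjusted p = 0.011). Without HiGlu replicate 2, the higher of the pair, it was 0.44 (adjusted p = 0.053), and limma then called 1 fatty acid gene higher (*Srebf1*) in place of 3. *Scd1*, the paralog nearby on the same chromosome, overlapped between groups at 0.492 and 0.483 RPKM against 0.441 and 0.607 RPKM (voom, 0.07 ± 0.17, adjusted p = 0.75). The paralogs are similar in sequence, so how the counting placed reads common to both is uncertain.

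*Fads1* fell. This desaturase makes arachidonate and eicosapentaenoate from their precursors. It gave 1.96 and 2.00 RPKM in LoGlu and 1.39 and 1.30 RPKM in HiGlu (chr19:10257378-10271360, plus strand), a log2 difference of -0.42 ± 0.08 (adjusted p = 0.0083) that was called in all 16 alternatives. *Fads2*, which catalyses an earlier desaturation of the same fatty acids, overlapped between groups at 0.139 and 0.101 RPKM against 0.0913 and 0.105 RPKM (voom, -0.29 ± 0.19, adjusted p = 0.24).

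Neither elongase was called. *Elovl5*, which lengthens polyunsaturated chains, gave 1.10 and 1.08 RPKM in LoGlu and 1.06 and 1.10 RPKM in HiGlu (-0.00 ± 0.07, adjusted p = 0.98). *Elovl6*, which lengthens palmitate, gave 0.193 and 0.199 RPKM against 0.180 and 0.164 RPKM, apart in range but not called (voom, -0.19 ± 0.11, adjusted p = 0.18).

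Both regulators of the arm were higher, *Thrsp* by voom alone. *Srebf1* gave 2.04 and 1.96 RPKM in LoGlu and 2.75 and 2.96 RPKM in HiGlu (chr11:60012591-60034106, minus strand), a log2 difference of 0.43 ± 0.09 (adjusted p = 0.011) called in all 16 alternatives. Its 2 main products differ in their first exon, and a value over the whole span does not separate them. *Srebf1* and *Srebf2* thus lay on opposite sides of 0 in the same libraries, the difference between them being untested.

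*Thrsp*, a small lipogenic protein of liver and adipose tissue, had the largest ratio and the fewest reads. It gave 0.0526 and 0.0296 RPKM in LoGlu and 0.199 and 0.203 RPKM in HiGlu, about 15 and 7 reads against 58 and 49. The ratio of means was 4.89, and voom gave a log2 difference of 2.29 ± 0.39 (adjusted p = 9.7e-05). The 9 markers of adipocytes, a cell type rich in *Thrsp*, summed to 0.401 to 0.629 RPKM in LoGlu and 0.245 to 0.310 RPKM in HiGlu. Most of the LoGlu sums was *Pparg*, at 0.307 and 0.349 RPKM in LoGlu and 0.104 and 0.108 RPKM in HiGlu and lower by voom (-1.63, adjusted p = 9.3e-10), a gene named after its values were seen. *Adipoq*, which defines the cell type, reached at most 0.00900 RPKM, and *Plin1* was at 0 in 3 libraries. The paper reports that *Pparg* is enriched in beta cells of the mouse relative to alpha cells. In whole islets the *Pparg* values, and the marker sums that include them, therefore cannot be read as adipocyte RNA alone. The part of adipocytes in the *Thrsp* values was not tested.

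**Figure D3:**
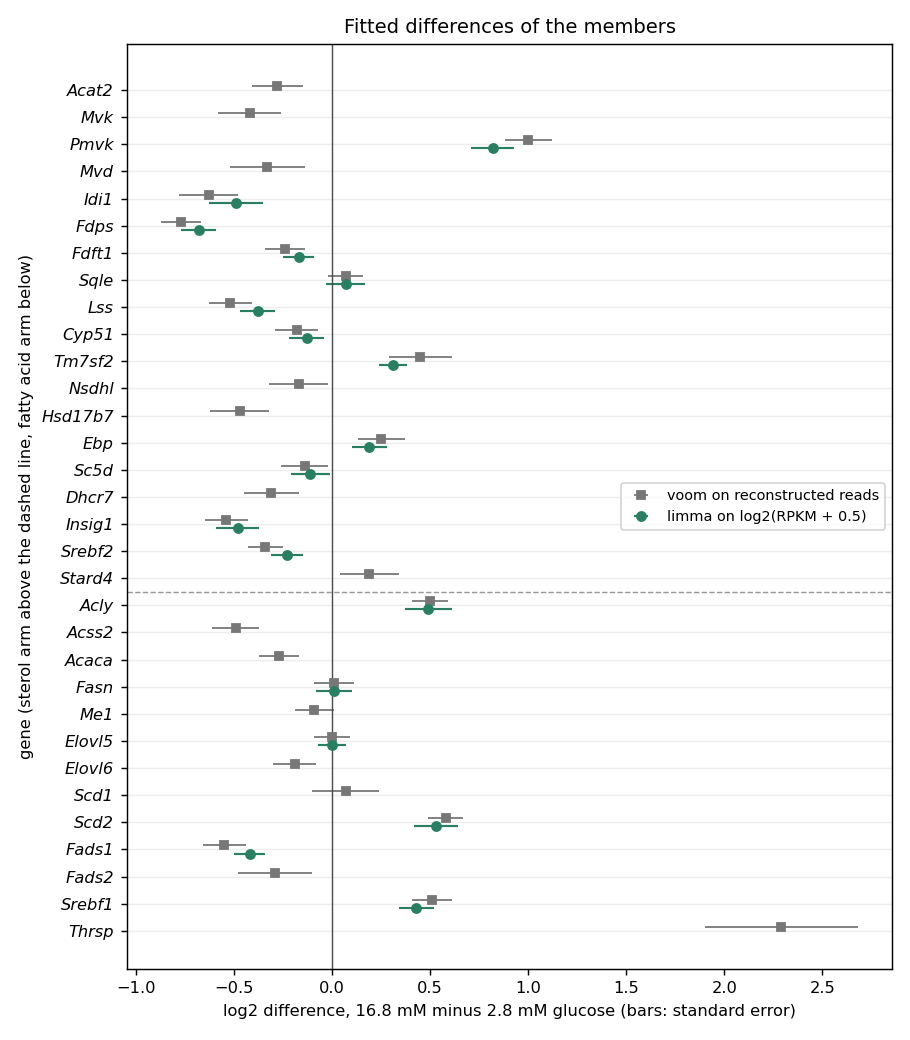
Log2 difference (16.8 mM minus 2.8 mM glucose) of the 32 members above 0, with bars for the standard error. Green circles are limma on log2(RPKM + 0.5), for the 18 members whose mean reached 1 RPKM, and grey squares are voom on reconstructed reads. *Pmvk* at 0.82 and *Fdps* at -0.68 span the limma values, and *Thrsp* at 2.29 lies outside the rest by voom.

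Both methods gave the same sign for the 18 members tested in limma, with *Elovl5* at 0 in both, and voom values lay further from 0 for the called genes, since adding 0.5 RPKM shrinks the differences of low values. Across both arms limma called 10 of 18 tested members (55.6%, against 33.4%), 5 in each direction, and voom called 16 of 32 (against 42.7%), 6 higher and 10 lower. Of the 18, 16 reached the minimum in both groups, and *Tm7sf2* was tested only through its HiGlu values.

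Other genes of the pathways, from lists that do not hold the members, were read in the same fit. Of 20 further genes of sterol synthesis, SREBP control and cholesterol uptake, 12 were tested by limma and 7 of them were lower (against 22.8% of all transcripts), as were 11 of 19 by voom (against 29.1%). *Insig2*, named after its values were seen, was higher by voom (0.27, adjusted p = 0.035). *Stard5*, a sterol carrier, fell from 9.04 and 8.75 RPKM to 2.34 and 1.98 RPKM (-1.82 ± 0.11, adjusted p = 0.00012). Named after their values were seen, *Scap* and *Mbtps1*, which escort and cleave the SREBPs, were lower (-0.28, adjusted p = 0.029, and -0.31, adjusted p = 0.026). The 7 lower calls of this list became 1 without LoGlu replicate 1 or HiGlu replicate 2 and 4 without LoGlu replicate 2.

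Of 12 genes of sterol export and its receptors (LXRs), 5 were tested by limma, with 0 higher (0 also at an unadjusted p under 0.05, against 10.7% of all transcripts called higher) and 2 lower (against 22.8%). By voom 2 of 11 were higher (against 13.7%) and 2 lower (against 29.1%). *Abcg1*, a sterol exporter, fell from 1.62 and 1.63 RPKM to 0.860 and 0.875 RPKM (-0.64 ± 0.07, adjusted p = 0.0015) and was tested through its LoGlu values, and the other call was *Abca1* (-0.35, adjusted p = 0.013).

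Of 31 further genes of fatty acid synthesis, elongation and activation, 13 were tested by limma, 2 being higher (against 10.7% of all transcripts) and 2 lower (against 22.8%), while voom called 6 of 29 higher (against 13.7%) and 9 lower (against 29.1%). *Pgd*, an NADPH-producing enzyme of the pentose phosphate pathway, rose from 2.57 and 2.23 RPKM to 3.58 and 3.25 RPKM (0.43 ± 0.10, adjusted p = 0.019), as did *G6pdx*, which precedes it (0.32, adjusted p = 0.027). *Pklr*, a pyruvate kinase, fell from 1.48 and 1.38 RPKM to 0.945 and 0.932 RPKM (-0.42 ± 0.08, adjusted p = 0.0070) and was tested through its LoGlu values. It shares 521 bases with *Hcn3* on the opposite strand, which voom called lower (-0.86, adjusted p = 2.0e-05). *Mlxipl*, the glucose-responsive factor ChREBP, was lower as well (-0.33, adjusted p = 0.048). *G6pdx* and *Mlxipl*, like *Abca1* and *Agpat2* of the other lists, were named after their values were seen. The higher calls became 0 without LoGlu replicate 2 and 1 without replicate 1 of either group, and the lower calls 1 without either HiGlu library.

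Of 22 genes of glycerolipid assembly and lipid droplets, 7 were tested by limma, with 0 higher (1 at an unadjusted p under 0.05, against 10.7% of all transcripts called higher) and 2 lower (against 22.8%). *Agpat3*, an acyltransferase, fell from 1.67 and 1.64 RPKM to 1.01 and 0.948 RPKM (-0.54 ± 0.08, adjusted p = 0.0029), and *Agpat2* was lower too (-0.35, adjusted p = 0.016). The HiGlu means of both lay under 1 RPKM, so they were tested through their LoGlu values. By voom 2 of 19 were higher (against 13.7%) and 9 lower (against 29.1%).

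Alpha cell markers summed to 1700 to 2220 RPKM in LoGlu and 1540 to 2170 RPKM in HiGlu, and limma called 0 of 5 tested (1 higher and 1 lower at an unadjusted p under 0.05), while voom called 1 of 6 higher and 1 lower. Delta cell markers summed to 447 to 598 RPKM and 696 to 704 RPKM, and limma called 0 of 3 (1 higher at an unadjusted p under 0.05), while voom called 1 of 4 higher. Endothelial sums were 2.80 to 3.93 RPKM and 3.27 to 4.52 RPKM, macrophage and leukocyte sums 10.9 to 14.7 RPKM and 11.9 to 16.2 RPKM, and stromal sums 2.30 to 4.10 RPKM and 3.05 to 3.14 RPKM. Limma called 1 of 3 macrophage and leukocyte markers higher, and voom called 4 of 7 endothelial, 2 of 7 macrophage and leukocyte and 0 of 7 stromal markers higher. Over all transcripts tested, limma called 10.7% higher and 22.8% lower, and voom 13.7% and 29.1%.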

How the data were processed

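RNA-seq libraries of isolated mouse islets at 2.8 mM glucose (LoGlu, n = 2) and 16.8 mM glucose (HiGlu, n = 2) were compared, grouped by their labels. The authors deposited RPKM values per transcript for the 4 libraries. STAR, bedtools, DESeq and mm9 (NCBIM37) are named in the submitters' processing notes, and whether strand was used in counting is not given in the sources used here. The deposited RPKM values gave whole reads (tolerance 0.05) for 75.2% to 76.5% of suitable genes over the genomic span and for 14.2% to 14.8% over exons, so they were taken as divided by span, which lowers the values of genes with long introns. Depths of 50830000 to 60720000 reads were recovered from the same steps.

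Identical entries of a symbol were used once, leaving 28047 of 33923 entries. The main test was limma 3.58.1 (R 4.3.3) on log2(RPKM + 0.5), for transcripts whose mean reached 1 RPKM (variance trend, empirical Bayes, two-sided, Benjamini-Hochberg over all transcripts tested, called under 0.05). Voom, also in limma, was run as an alternative on reads reconstructed from RPKM, GENCODE vM1 span and depth, with a mean of at least 20 reads. A count test was not the main test, as the table holds no counts. Both were run on simulated data with fewer changed genes, and larger changes than those of most members. That run does not measure how often calls of the present kind are wrong. Tables and figures were made in Python 3.11.15 (pandas 2.3.3, matplotlib 3.10.9, numpy 2.4.6). With 2 libraries a group, their number limits precision more than depth, and PCR duplicates could not be counted.

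All 33 members were named, and some genes of the list of further sterol genes are not reported here and were left out of its counts. From each list of other lipid genes, the called genes with the largest rise and the largest fall were named, and genes overlapping a member. The members and lists were chosen with earlier results of these data known, so counts of members and of other lipid genes are given beside those of all transcripts, with no test over a list. Alternatives were other scalings, minima, pseudocounts, variance models, entries, a replicate term and leaving out each library. Those for the other lipid genes were added after seeing the data.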

Additional observations from a re-analysis of the deposited data

How the results depend on the processing

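Over 16 alternatives (15 for *Tm7sf2*) the 10 called members kept their direction. Their groups did not overlap, so most alternatives, such as leaving out a library or changing the pseudocount, could not have turned a sign. *Fdps*, *Fads1* and *Srebf1* kept their calls in all 16 alternatives, and *Idi1* lost its call in 6. The choice of entry changes nothing for these 4 genes, which have 1 entry each. The sterol genes called higher went from 2 to 1 with no minimum or with a minimum of 1 RPKM in every library, and ranged from 1 to 2 when a library was left out (1 without LoGlu replicate 1 or 2). Quantile normalization and median centring each gave 3 higher and 3 lower. Of all 7867 transcripts tested, the first called 1566 higher and 2173 lower, and the second 1662 and 2103. Sterol genes called lower went from 4 to 1 with no minimum, to 7 by voom and to 11 by voom with the replicate block, and ranged from 1 (without LoGlu replicate 1) to 4 over the libraries left out. More genes are tested by voom, whereas with no minimum the cause was not tested. Over all transcripts, limma called 1790 of 7867 lower in the main setting and 1731 of 28047 with no minimum. Voom called 5067 of 17424 lower, and 6824 with the block. Higher calls were 838 of 7867 in the main setting, 831 of 28047 with no minimum and 868 of 6909 with 1 RPKM in every library. The sterol median of -0.14 became -0.06 after median centring, -0.24 with 0.1 RPKM added and -0.28 by voom with or without the block. Fatty acid genes called higher ranged from 1 (without HiGlu replicate 2) to 3 over the libraries left out, being 2 without HiGlu replicate 1. Those called lower went from 1 to 2 with a minimum mean of 0.1 RPKM, to 3 by voom and to 4 by voom with the block. With that minimum mean, 3480 of all 16234 transcripts tested were lower. The sign turned for 2 genes near 0. *Fasn* was at -0.06 without LoGlu replicate 2 and -0.01 without HiGlu replicate 2, and *Elovl5* at 0.09 after quantile normalization, 0.08 after median centring and between -0.02 (without HiGlu replicate 2) and 0.02 (without HiGlu replicate 1) with a library left out, against 0.00. Of all transcripts, limma called 2628, against 3739 after quantile normalization, 3765 after median centring, 4900 with a minimum mean of 0.1 RPKM, 7447 by voom and 1825 to 2579 with a library left out.

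The labels number the libraries 1 and 2 in each group without saying that a number marks a shared source, and the deviations of same-numbered libraries correlated at 0.31. With only 2 pairs this does not show pairing. With the replicate block, 3 sterol genes were higher and 4 lower (*Ebp* and *Srebf2* gained a call, *Idi1* lost its own). Of the fatty acid genes, 3 were higher and 1 lower. Of all 7867 transcripts tested, 4067 were called, 1232 higher and 2835 lower, and voom with the block called 10104.

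Among the other lipid genes, *Stard5* (-2.04 to -1.65) kept its call in every alternative. *Abcg1*, *Pklr* and *Agpat3* kept theirs in every alternative that tested them. Each lay under 1 RPKM in at least 1 HiGlu library, so none was tested with a minimum of 1 RPKM in every library. *Pgd* lost its call in 2, without LoGlu replicate 2 and with no minimum. The counts of calls in those lists moved more, the further sterol genes called lower ranging from 1 to 13 around 7. In the lists of sterol export and of glycerolipid assembly, the 0 higher calls became 1 each without LoGlu replicate 1 or HiGlu replicate 2.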
